A study of Gallus gallus with 30 samples.

Results

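The change between 2 late stages of the chicken embryo (Gallus gallus), HH38 against HH34 of the Hamburger and Hamilton series, was read from 4 of the 30 arrays of a study that covered 15 stages from HH1 to HH38. The members were chosen by their stage label: the 2 arrays labelled HH38 and the 2 labelled HH34, over all chicken probe sets and in both directions. Both stages came from wild type embryos of the Nera line, with the yolk and amnion taken off and the sex given as mixed. Each array held RNA pooled from whole embryos of 1 stage, so a difference between stages mixes all tissues of the embryo, and a smaller share of a cell type cannot be told apart from less RNA per cell of that type. The design text calls the 2 arrays of a stage biological replicates made from pools of several embryos, so the p-values measure the spread between such pools. The sources used here give neither the number of embryos in a pool nor how many were of each sex.

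Between these stages the body plan is complete and the chick's organs take on their later functions. The skin stratifies and cornifies, feather germs form barbs, cartilage of the long bones gives way to mineralized bone, and granulocytes form in the bone marrow and the spleen. In the nervous system and the eye, dividing progenitors give way to postmitotic neurons, and red cells of the primitive lineage, which carry embryonic globins, are replaced by definitive ones.

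Signals are linear MAS5 values, scaled on each array to a trimmed mean of 500. As the background of each array, the 95th percentile over its probe sets for other organisms was taken, which came to 37.2 and 38.1 on the HH38 arrays, against 37.8 and 28.7 on the HH34 arrays. Above it lay 70% and 70.8% of the chicken probe sets at HH38, against 70.3% and 72.8% at HH34. Log2 signals of replicate arrays correlated at 0.952 at HH38 and 0.955 at HH34 over 29600 probe sets, and arrays of the 2 stages at 0.92 on average. With 2 arrays per stage, precision is limited by how few arrays there are, and 1 limma fit therefore estimated the spread over all 15 stages. Values of a stage are given for replicate 1 and then replicate 2, changes are log2 of HH38 over HH34 with their standard error (SE), and p-values are limma's, adjusted by Benjamini-Hochberg over all probe sets. To be called, a probe set had to change 2-fold or more with its adjusted p under 0.05. Where an array of the dimmer stage lay under its background, the fold is given as a lower bound with the background in place of that signal.

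The 2 HH38 arrays went against their label in one respect. HINTW, a gene of the W chromosome that cocks lack, read 3.56 and 30.3 at HH38, below background on both arrays, against 18417 and 16880.1 at HH34, and between 13066 and 35524 on the 28 arrays of the other stages. SPIN1L, a W-linked copy of a spindlin gene, read 2.85 and 2.04 at HH38 and 1365 and 1339 at HH34. UBAP2L2, a W-linked copy of a ubiquitin-associated protein gene, read 26.7 and 27 at HH38 and 169 and 141 at HH34, with 1 of its 4 probe sets called. The 3 genes were lower at HH38 by at least 468-fold, 35.9-fold and 4.09-fold (adjusted p = 1.13e-11, 2.57e-10 and 0.00544), and the call of UBAP2L2 ended without HH34 replicate 1 (adjusted p = 0.0523). All 6 measured genes of the W list were called lower. Of the 15 measured genes that the GRCg7b gene table places on W, 11 were called lower, each at or below background on both HH38 arrays, and 10 of the 11 were above background on every one of the 28 other arrays. The other 4 were NEDD4L, MBD2, LOC425347 and LOC107055438, of which NEDD4L read 1931 and 1865 at HH38 and 1995 and 2198 at HH34. LOC430910, LOC107049459 and LOC426615, of the 11, were also among the 20 largest falls. W-linked genes are set apart from the other gene lists that follow. The totals over all probe sets and genes include them, with 21 probe sets and 11 genes called lower among those that could be placed on W.

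Genes placed on Z had a median log2 change of 0.25 over 568 genes, against -0.04 over 11423 genes of the other chromosomes. Of the Z genes 73.4% had a positive change, against 45.8% elsewhere, and 25 were called higher and 4 lower. The share of Z genes called higher was 4.4%, against 2.9% elsewhere. Since W-linked signals differed between the stages, the sex mix of the pools and the stage cannot be told apart for any gene, on Z or elsewhere. Where a gene named below lies on Z this is stated.

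**Figure D1:**
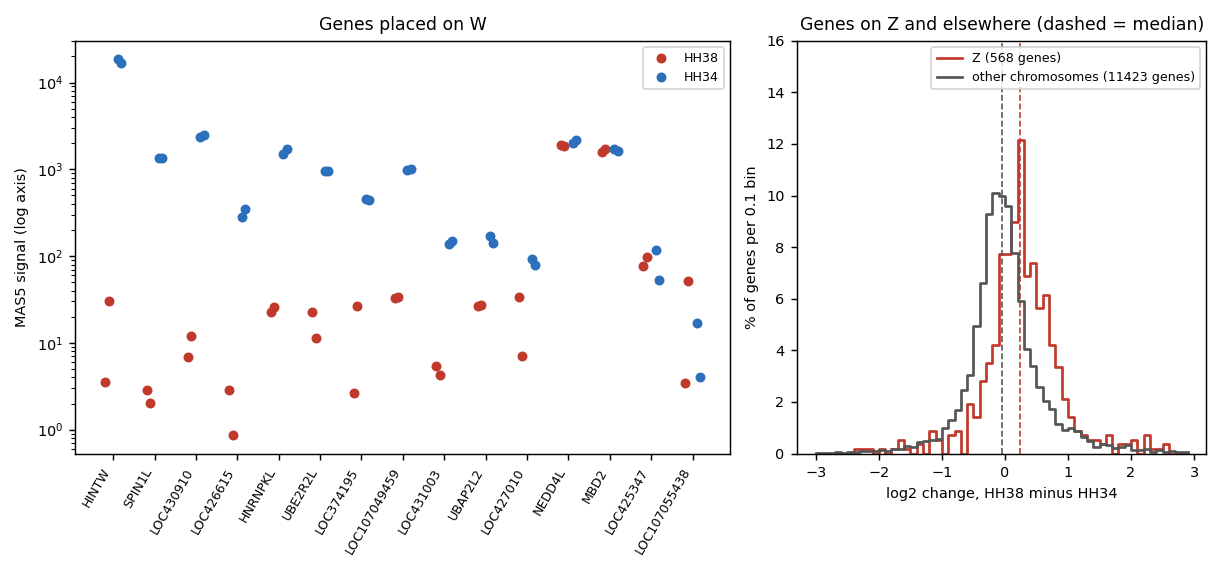
Left: MAS5 signal (log axis) of the 15 measured genes placed on W, with each point 1 array, HH38 in red to the left of HH34 in blue. The 11 genes on the left were at or below background on both HH38 arrays. Right: share of genes per bin of log2 change, for Z (median 0.25) and for other chromosomes (median -0.04).

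A control measure also stood apart at HH38. The ratio of the 3' to the 5' probe set of actin was 2.48 and 2.99 on the HH38 arrays, against 1.87 and 1.92 on the HH34 arrays and 1.54 to 2.01 over all 28 arrays other than HH38. The same ratio for GAPDH was 1.17 and 1.07 at HH38 and 1.06 and 1.04 at HH34, within 0.993 to 1.16 over those 28 arrays for all but HH38 replicate 1. The part of this ratio in the results was not tested.

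Of 29600 probe sets, 1126 (3.8%) were called between HH38 and HH34, 687 higher (2.32%) and 439 lower (1.48%) at HH38. Without the probe sets of genes placed on Z and W the counts were 655 higher and 410 lower. Probe sets without 1 symbol have no chromosome here and stayed in, and 278 of the called probe sets are of this kind. The balance of higher and lower calls depended on the arrays and the limit: without HH38 replicate 2 there were 463 higher and 499 lower, without HH34 replicate 1 there were 564 and 288, and with no minimum fold 1538 and 2288. With signals under background set to it there were 1070 higher and 469 lower calls. The step before, from HH32 to HH34, had 18 called probe sets (0.0608%), the fewest of any step between neighbouring stages. More than from HH34 to HH38 were called from HH1 to HH2 (3206), HH2 to HH4 (2395) and HH9 to HH11 (1410). HH38 against HH32, added after seeing the data, had 1400 (4.73%). Read by gene, with the brightest probe set of each of 12146 genes, 519 genes were called (4.27%), 358 higher (2.95%) and 161 lower (1.33%). Of the called probe sets, 102 were at or below background on both HH34 arrays and above it on both HH38 arrays, and 121 were the reverse. Both HH38 arrays lay above both HH34 arrays for 686 of the 687 higher calls and below them for 438 of the 439 lower calls, while over all genes 29% lay wholly above and 34.7% wholly below. Of the probe sets tested, 86 passed the signal filter only through the HH38 arrays, and 26 of these were called higher. Among the genes described in the text these were KRT6A, KRT71, LOC396480, LOC428499, LOC770450, LOC771995, LYZ, THRSP and CTRC, which had to be high at HH38 to be tested at all. HH38 held the highest stage mean of the series for 449 of the 687 probe sets called higher (65.4%), against 15.6% of all probe sets, and the call itself favours this. HH1 held it for 84. Of the 439 called lower, 48.1% had their highest mean between HH24 and HH34, and the share of all probe sets for these stages was not taken. By single stage, HH1 held the highest mean for 81 of the lower calls, HH27 for 75 and HH34 for 56.

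**Figure D2:**
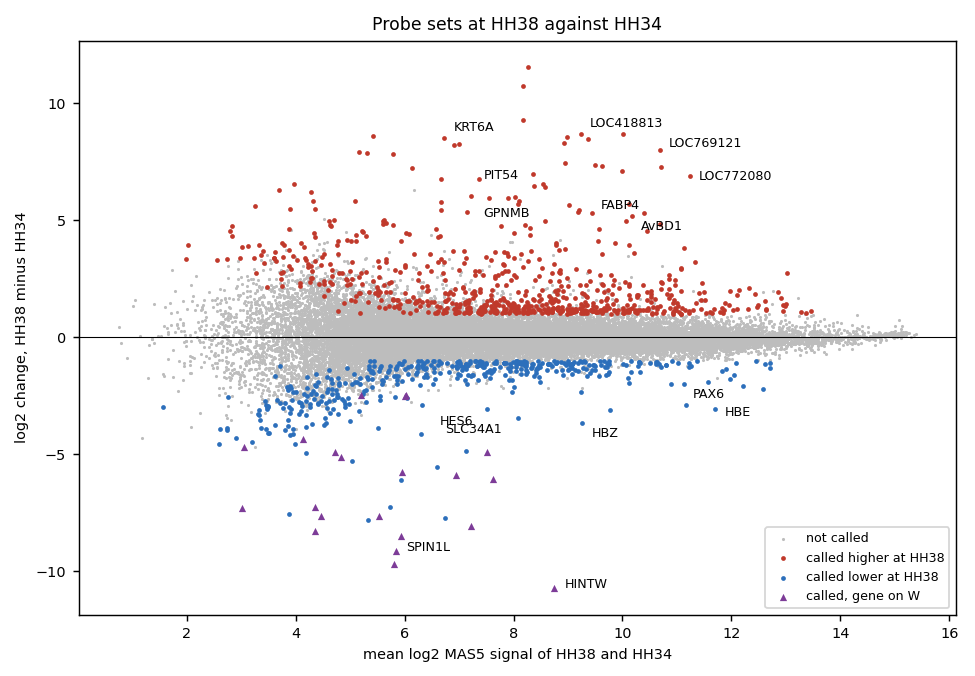
Log2 change of HH38 over HH34 against mean log2 MAS5 signal of both stages, 1 point per probe set (29600). Red marks the 687 called higher, blue the called lower and purple triangles called probe sets of genes on W, with names beside some of the genes described in the text.

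Of the 20 largest rises, KRT6A and KRT75L2 are keratin genes, LOC772080 and LOC771995 lie within a keratin cluster, and 4 lie in the epidermal differentiation complex. Keratins of the epidermis form paired filaments of type I and type II chains, and the cells of its outer layers fill with corneous proteins and die. KRT6A, a type II keratin, read 1949.9 and 2086 at HH38, against 6.26 and 5 at HH34, at least 61.3-fold higher (adjusted p = 2.02e-05). KRT75L2, a type II keratin-like gene, read 3317 and 3669.8 at HH38 and 46.9 and 36.4 at HH34, 84.4-fold higher. In both, the signals at HH34 lay near or under background. KRT13, the type I gene under which the table files KRT15, read 6050.2 and 5965 at HH38 and 694 and 846 at HH34 (2.97 ± 0.29, adjusted p = 2.04e-07). KRT14, the type I partner of the basal layer, read 4438 and 4137 at HH38 and 1086 and 1093 at HH34 (1.98 ± 0.19). KRT5, its type II partner, read 8429 and 8336 at HH38 and 591 and 617 at HH34 (3.80 ± 1.11, adjusted p = 0.0246). The replicates of KRT5 lie close together at both stages, but its SE is that of the whole series, and its call ended when any 1 of the 4 arrays was left out (adjusted p = 0.109 to 0.118).

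Of 12 measured keratin genes, 8 were called higher and 0 lower, against 2.95% and 1.33% of all genes. The family was counted because KRT6A and KRT75L2, both called, were among the largest rises. Its count is therefore not independent of the values by which the family was chosen. KRT6A and KRT71, which are among the 8, passed the signal filter only through the HH38 arrays. They had to be high at HH38 to be counted. KRT23 rose 9.5-fold and KRT7, of simple epithelia, 2.12-fold. KRT71 was at least 26.3-fold higher, with a call that ended without HH38 replicate 1 or HH34 replicate 1 (adjusted p = 0.0511 to 0.109). KRT24 read 3303 and 3411 at HH38 and 3423 and 3455 at HH34, and KRT75, KRT40 and KRT222 were not called either. Probe sets of near-identical family members can pick up each other's RNA, which holds for keratins, corneous proteins, defensins and globins and was not tested.

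The largest rise by the floored change was LOC418813, which has the synonym FK1 in the gene table, at 12585 and 11800.0 at HH38, against 38.4 and 23.2 at HH34, at least 367-fold. LOC772080 and LOC771995, which lie between KRT9 and KRT14 in the type I keratin cluster, were both among the 20 largest rises. LOC772080 read 25474 and 26860.4 at HH38 and 209 and 239.9 at HH34 on its brightest probe set. LOC771995 read 2097 and 2039 at HH38 and 30.2 and 35.8 at HH34. LY6CLEL, a gene named for likeness to the Ly6 family, read 6409.6 and 6535 at HH38 and 47.7 and 29.4 at HH34. LOC428499, LOC770450 and LOC424473, for which no role is given here, were at least 80.4-fold, 62.9-fold and 44.6-fold higher.

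The epidermal differentiation complex on chromosome 25 holds genes for cornified envelope and corneous beta proteins. In the gene table, 88 genes run from LOC408038 to JAC1 there, a stretch chosen after its values had been seen. Of these 12 were measured, and 10 were called higher and 0 lower, against 2.95% and 1.33% of all genes. The genes at both ends of the stretch were called higher, so this count is not independent of the values by which the stretch was chosen. LOC396480, which is among the 10, passed the signal filter only through the HH38 arrays. For 11, both HH38 arrays lay above both HH34 arrays, against 29% of all genes. LOC769121 read 26512 and 26031 at HH38 and 145 and 74.8 at HH34 (7.98 ± 0.35, adjusted p = 1.03e-12). LOC107055128, with the synonym EDMTF4, read 10492 and 9174 at HH38 and 31.8 and 21.8 at HH34, at least 298-fold higher. JAC1 read 2354 and 2111 at HH38 and 5.38 and 10.1 at HH34, at least 67.7-fold. The replicates at HH38 were not alike for every gene of the stretch. LOC395095 read 7690 and 1817 at HH38, against 144.5 and 373 at HH34, LOC426218 2473 and 476.3 at HH38, against 90.4 and 291.3 at HH34, and LOC396479 had 5205 and 2642 at HH38, against 40.8 and 131 at HH34. The call of LOC396479 ended without either HH38 array or HH34 replicate 1 (adjusted p = 0.0588 to 0.142). That of LOC395095 ended without HH38 replicate 1 (0.0586), that of LOC426218 without replicate 1 of either stage (0.296 to 0.393), and that of LOC769486, also in the stretch, without any 1 of the 4 arrays (0.0781 to 0.216). In the list of feather, scale and claw proteins 2 members were measured. LOC396480 was called higher (at least 3-fold), a call that ended without any 1 of the 4 arrays (adjusted p = 0.0582 to 0.168), and BKJ read 107 and 45.5 at HH38 and 81.7 and 55.5 at HH34.

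Of 17 measured genes of the epidermal barrier list, 11 were called higher and 0 lower, with a median change of 2.00, against 358 higher and 161 lower of 12146 genes and a median of -0.03 over all. KRT6A, which is among the 11, passed the signal filter only through the HH38 arrays. EVPL, the envoplakin that lines the cornified envelope, read 1271 and 1236 at HH38 and 142 and 202 at HH34 (2.89 ± 0.22, adjusted p = 6.85e-09). GRHL1, a transcription factor of the epidermis, read 782 and 565 at HH38 and 60.1 and 102 at HH34 (3.09 ± 0.47, adjusted p = 8.27e-05). TP63, the master factor of stratified epithelium, rose 2.16-fold, GRHL3 3.78-fold and PPL, the periplakin partner of EVPL, 4-fold. PKP1, a plakophilin of desmosomes, read 79.2 and 103 at HH38 and 9.11 and 40.8 at HH34 and was not called (adjusted p = 0.112).

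Several genes of cell junctions rose. Of 17 measured genes of desmosomes and epithelial junctions, 7 were called higher and 1 lower, against 2.95% and 1.33% of all genes. The median change was 0.76. DSP, desmoplakin, read 4782 and 4451 at HH38 and 858 and 853 at HH34 (2.43 ± 0.17, adjusted p = 1.98e-09). DSC1, a desmocollin of the upper epidermis, rose 5.76-fold. CLDN1, a claudin of the tight junction, read 9961 and 10945 at HH38 and 2796 and 3039 at HH34, and EPCAM, an adhesion molecule of epithelia, 13529.7 and 13667 at HH38 and 4358 and 4276 at HH34. ESRP2, an epithelial splicing factor, rose 3.84-fold and CDH1, E-cadherin, 2.25-fold. ESRP1 was at least 2.11-fold higher, with a call that ended without either HH38 array or HH34 replicate 2 (adjusted p = 0.145 to 0.452). CGN, cingulin, was the member called lower, at 28.9 and 29.8 at HH38 and 158 and 85.7 at HH34, a call that ended without HH34 replicate 1 (adjusted p = 0.0501). OCLN, CLDN3 and JUP were not called.

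**Figure D3:**
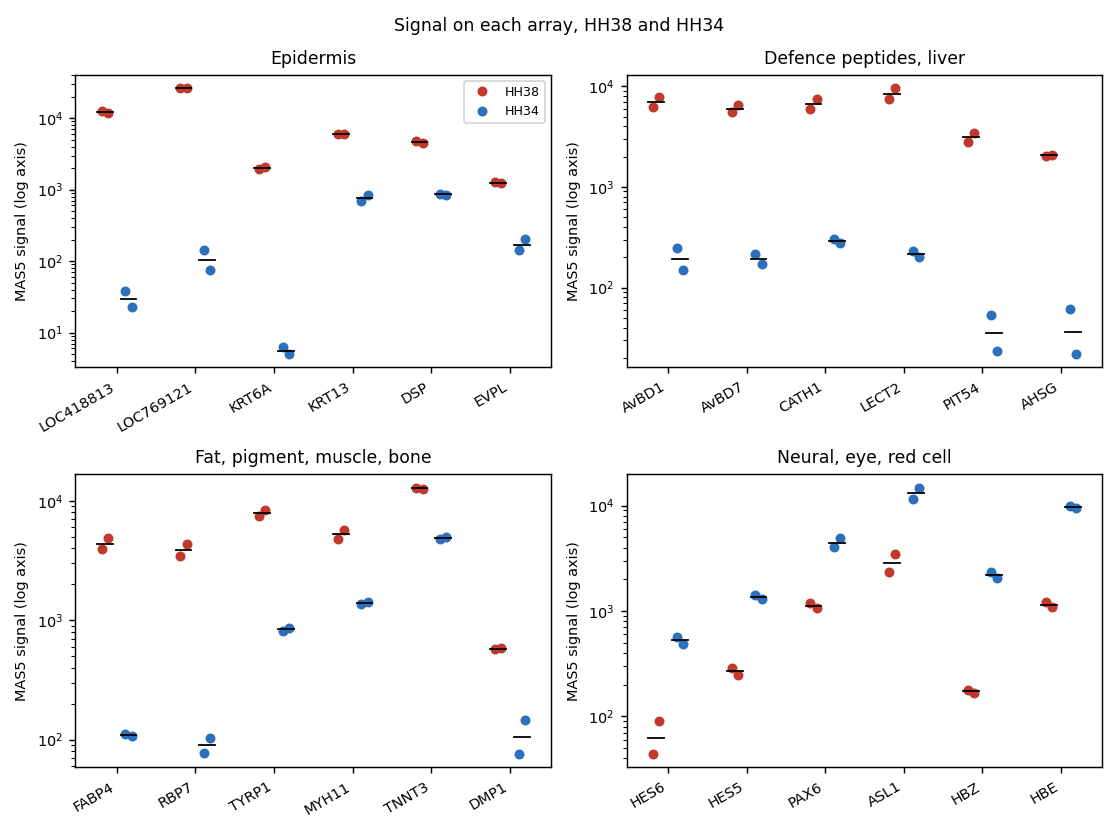
MAS5 signal (log axis) on each array for genes in 4 panels, HH38 (red) left of HH34 (blue), with a bar at the mean of the log2 values of a stage. In the first 3 panels every HH38 point lies above both HH34 points, and in the last every HH38 point lies below both HH34 points.

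Genes of granulocytes and antimicrobial peptides had the largest median change of all lists, 4.19. Avian beta-defensins (AvBD) and cathelicidins are cationic peptides that heterophils, the granulocytes of birds, store in their granules. Of 14 measured members 9 were called higher and 0 lower, against 2.95% and 1.33% of all genes. LYZ, which is among the 9, passed the signal filter only through the HH38 arrays. AvBD1 read 6215 and 7759 at HH38 and 244 and 149.9 at HH34 (5.18 ± 0.65, adjusted p = 7.58e-06). DEFB4A, the gene under which the table files AvBD2, read 7883 and 9949 at HH38 and 302 and 317 at HH34, 28.6-fold higher. AvBD6 rose 21.6-fold and AvBD7 31-fold. CATH1, a cathelicidin, read 6003 and 7391 at HH38 and 305 and 276 at HH34 (4.52 ± 0.70). LECT2, known in the chicken as the myeloid granule protein mim-1, read 7388 and 9633 at HH38 and 232 and 199.9 at HH34 (5.29 ± 0.94, adjusted p = 0.000462). Because its name is also used for a liver protein and a cartilage factor, LECT2 is counted in 3 lists here.

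LYZ, the chicken-type lysozyme, rose at least 13.7-fold, LYG2, of the goose type, 15.5-fold, and EXFABP, a lipocalin that binds bacterial siderophores, rose 3.77-fold. The call of LYZ ended without any 1 of the 4 arrays (adjusted p = 0.0501 to 0.167). AvBD4 was at least 9.8-fold higher, with a call that ended without either HH38 array or HH34 replicate 1 (adjusted p = 0.0689 to 0.105). Of 12 measured defensins and cathelicidins 6 were called higher and 0 lower, against 2.95% and 1.33% of all genes. This family was counted because AvBD1, which is among the 6, was among the largest rises. Its count is therefore not independent of the values by which the family was chosen. The other 6 were AvBD3, AvBD5, AvBD8, AvBD9, AvBD10 and AvBD12. AvBD5 read 22.9 and 100.3 at HH38 and 153 and 137 at HH34, AvBD12 13.7 and 39.3 at HH38 and 60.4 and 51.6 at HH34, AvBD3 168 and 98.5 at HH38 and 176 and 125 at HH34, and AvBD8 46.8 and 60.5 at HH38 and 49.6 and 22.7 at HH34. AvBD9 read 3222 and 3936 at HH38 and 3679 and 3524 at HH34, and AvBD10 10763 and 10469 at HH38 and 18951 and 16316 at HH34. AvBD10 was 1.66-fold lower (adjusted p = 0.0133), under the 2-fold limit of a call. AvBD1 and LECT2 had stage means between 103.7 and 273.9 from HH24 to HH34, and 6944 and 8437 at HH38.

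Of 30 measured leukocyte genes, 5 were called higher and 0 lower, against 2.95% and 1.33% of all genes. The median change was 0.82. CD74, the invariant chain of class II molecules, read 9069.9 and 9264 at HH38 and 3521 and 3646 at HH34 (1.36 ± 0.19), and BLB1, a class II beta chain, 2218 and 2152 at HH38 and 968 and 892 at HH34. CD3D, a chain of the T cell receptor complex, rose 2.58-fold, CCLI5, a chemokine, 10.8-fold, and IL7R, a cytokine receptor placed on Z, at least 1.85-fold. These last 3 calls did not last when arrays were left out. CD3D and CCLI5 lost theirs without any 1 of the 4 arrays, although their log2 changes stayed at 1.31 to 1.42 and 3.37 to 3.49. IL7R lost its call without either HH38 array or HH34 replicate 2, with log2 changes of 0.62 to 3.20. At HH32 IL7R had read 80.5 and 64, so its HH38 signals of 69.1 and 59.8 were not above those of HH32. PTPRC, the pan-leukocyte phosphatase CD45, read 237 and 198 at HH38 and 104 and 119 at HH34 and was not called (adjusted p = 0.0732). Of 19 measured endothelial genes 0 were called, against 4.27% of all genes. TEK, an angiopoietin receptor placed on Z, read 701 and 689 at HH38 and 449.5 and 399 at HH34.

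**Figure D4:**
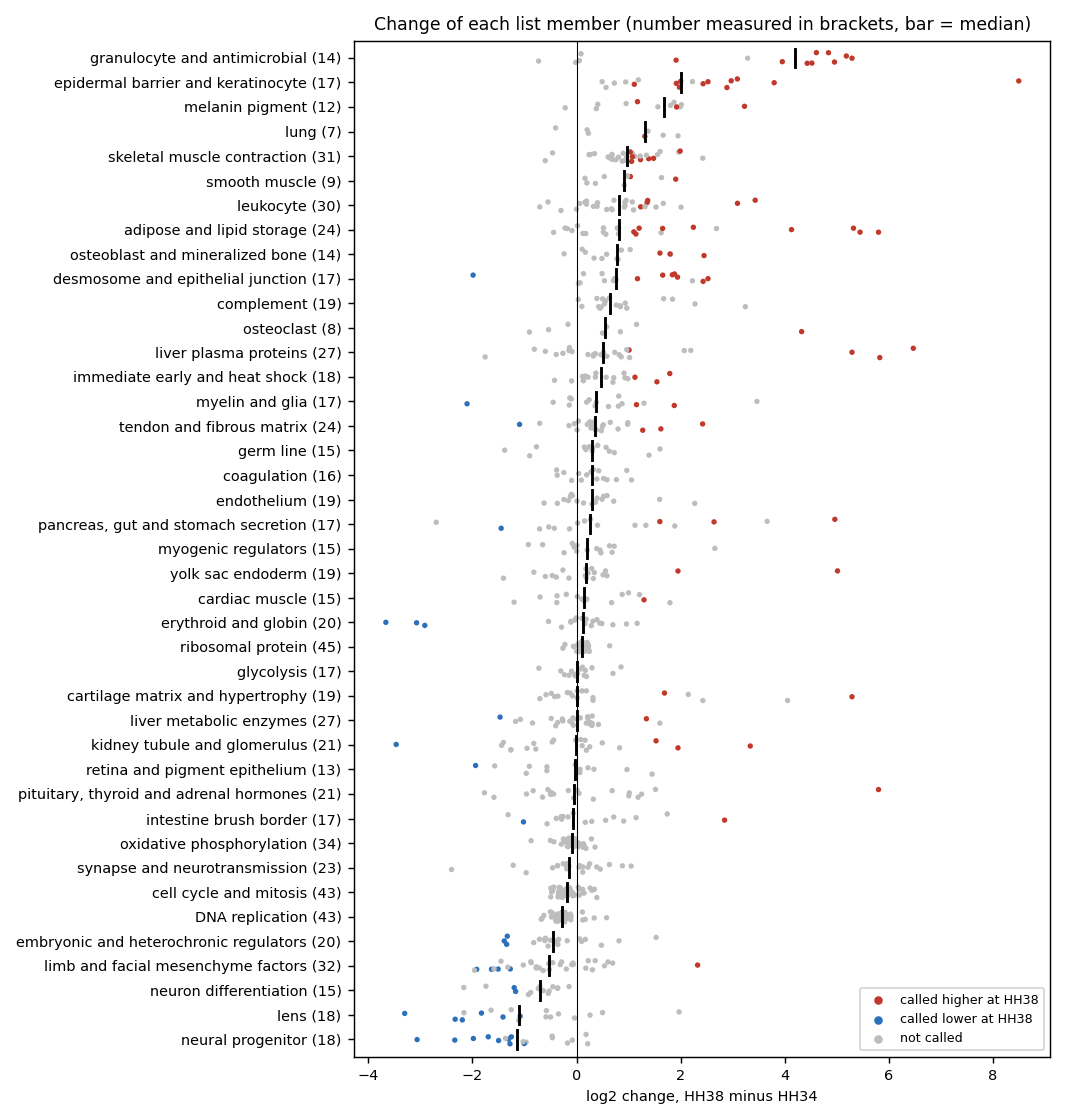
Log2 change of HH38 over HH34 for every measured member of each list except the feather and W lists, ordered by median (black bar). Red and blue points were called higher and lower. Granulocyte genes have the highest median (4.19) and neural progenitor genes the lowest (-1.14).

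Plasma proteins made by the liver did not move as a block. Of 27 measured, 4 were called higher and 0 lower, against 2.95% and 1.33% of all genes. The median change was 0.51. The 4 were PIT54, AHSG, APOH and LECT2, the last of which is also counted among the granulocyte genes above. PIT54, the haemoglobin-binding plasma protein of birds, read 2813 and 3468 at HH38 and 53.6 and 23.2 at HH34, at least 79.7-fold higher (adjusted p = 0.000172). AHSG, fetuin A, an inhibitor of mineral growth in plasma, read 2048 and 2083 at HH38 and 61 and 21.8 at HH34, at least 49.4-fold higher (adjusted p = 0.00201). ALB, albumin, read 41009 and 48315 at HH38 and 28439 and 25158 at HH34, APOA1, the main apolipoprotein of high-density lipoprotein, 4819 and 5981 at HH38 and 6689.5 and 6189 at HH34, and neither was called. APOH rose 2.01-fold, with a call that ended without HH38 replicate 2 or either HH34 array (adjusted p = 0.106 to 0.207). No member of the coagulation list was called (0 of 16) and none of complement (0 of 19), against 4.27% of all genes. Still, all 19 complement genes had a positive change, and the adjusted p was below 0.05 for 2 of them. C7, which lies on Z, read 44.4 and 31.5 at HH38 and 3.07 and 5.1 at HH34 (adjusted p = 0.0776).

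Of 27 liver enzymes 1 was called higher and 1 lower, against 2.95% and 1.33% of all genes. MAT1A, which makes S-adenosylmethionine, rose 2.54-fold. ARG2, a mitochondrial arginase, fell to 761 and 619.9 at HH38, against 1862 and 1936 at HH34. In the yolk sac endoderm list, 2 of 19 were called higher, against 2.95% of all genes. AFP, alpha-fetoprotein, read 279.7 and 279.9 at HH38 and 35.3 and 2.13 at HH34. SLC34A2, a phosphate transporter, read 63.6 and 101 at HH38 and 26.5 and 16.2 at HH34. Both were below background at HH34, so AFP was at least 8.5-fold higher and SLC34A2 at least 2.43-fold. The call of AFP ended without HH34 replicate 2 (adjusted p = 0.155), and that of SLC34A2 without HH38 replicate 2 or HH34 replicate 2 (0.173 to 0.181).

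Some genes of fat storage rose. Fat depots form below the skin late in the egg, and their cells carry fatty acids on FABP4 and coat lipid droplets with perilipins. Of 24 measured members 9 were called higher and 0 lower, against 2.95% and 1.33% of all genes. The median change was 0.81. THRSP, which is among the 9, passed the signal filter only through the HH38 arrays. FABP4 read 3911 and 4879 at HH38 and 112 and 107 at HH34 (5.32 ± 0.47, adjusted p = 6.04e-08). RBP7, a cellular retinol-binding protein of fat and endothelium, read 3478 and 4371 at HH38 and 77.9 and 103 at HH34 (5.45 ± 0.61). CD36, a fatty acid receptor, rose 4.74-fold, G0S2, an inhibitor of the lipase ATGL, 3.15-fold and LPL, lipoprotein lipase on Z, 2.21-fold. THRSP, a lipogenic thyroid hormone-responsive gene, was at least 7.73-fold higher, with a call that ended without replicate 2 of either stage (adjusted p = 0.0613 to 0.0803).

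PLIN1, the perilipin of fat cells, read 177 and 365 at HH38 and 9.12 and 23.2 at HH34, and its call ended without any 1 of the 4 arrays (adjusted p = 0.0645 to 0.216). PLIN3 was at least 11.2-fold higher, while PLIN2, on Z, changed 1.48-fold and was not called. ELOVL6, a fatty acid elongase, rose 2.15-fold, under the 2-fold limit without HH34 replicate 1 (log2 change 0.84). The enzymes of fatty acid synthesis FASN, ACACA and SCD were not called (log2 changes -0.22 for FASN and -0.18 for ACACA, with SCD at or below background on all 4 arrays). PPARG, the main regulator of fat cell formation, read 155 and 191 at HH38 and 104 and 92 at HH34 and was not called.

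Of 31 measured genes of the contractile apparatus of skeletal muscle, 7 were called higher, 0 lower, and 29 had a positive change, with a median of 0.96. Among all 12146 genes, 2.95% were called higher, 1.33% lower, and 5715 had a positive change. TNNT3, the fast troponin T, read 12883 and 12501 at HH38 and 4784 and 4927 at HH34 (1.39 ± 0.23, adjusted p = 0.000205). TTN, titin, read 6174 and 6386 at HH38 and 2198 and 2304 at HH34 (1.48 ± 0.34), with 2 of its 12 probe sets called. MYOT, myotilin of the Z disc, read 4675 and 4381 at HH38 and 2165 and 2138 at HH34, and SRL, sarcalumenin of the calcium store, 1940.2 and 1619 at HH38 and 646 and 886 at HH34. ACTA1, skeletal actin, rose 2.08-fold, just under the limit without HH34 replicate 1 (log2 change 1.00). MYBPC1, a myosin-binding protein, rose 3.97-fold, with 1 of its 3 probe sets called. The call ended without any 1 of the 4 arrays, although the log2 change stayed at 1.97 to 2.01.

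Of 15 regulators of muscle identity 0 were called in either direction, against 4.27% of all genes. MYOD1 read 3199 and 2945 at HH38 and 2447 and 2247 at HH34, and MYOG 859 and 835 at HH38 and 932 and 766 at HH34. CHRNG, the fetal acetylcholine receptor chain, read 406 and 262 at HH38 and 81.2 and 32.9 at HH34 (adjusted p = 0.206). Of 9 smooth muscle genes 2 were called higher, against 2.95% of all genes. These were MYH11, the smooth muscle myosin, at 4826 and 5654 at HH38 and 1376 and 1414 at HH34 (1.91 ± 0.28), and TAGLN, transgelin. The call of TAGLN ended without replicate 2 of either stage (adjusted p = 0.0539 to 0.11). Of 15 cardiac genes 1 was called, against 4.27% of all genes. This was CSRP3, a muscle LIM protein that skeletal muscle also expresses. Its call ended without HH38 replicate 2 or HH34 replicate 1 (log2 changes 1.07 and 0.88). TNNT2 and MYH7 had adjusted p-values of 0.0104 and 0.005 with changes under 2-fold.

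Among skeletal genes, 3 genes of mineralized bone rose, while COL2A1 and ACAN of the cartilage matrix were not called. The 3 were among 14 measured bone genes, of which 0 were called lower, against 2.95% higher and 1.33% lower of all genes. The median change of the 14 was 0.79. DMP1, a phosphoprotein of osteocytes, read 570.2 and 584 at HH38 and 76.1 and 147 at HH34 (2.45 ± 0.49, adjusted p = 0.00146). SPP1, osteopontin, read 2367 and 2256 at HH38 and 571 and 775 at HH34 (1.80 ± 0.19), with its highest stage mean of the series at HH9. IFITM5, a membrane protein of osteoblasts, read 1496 and 1787 at HH38 and 449 and 646 at HH34, with a call that ended without either HH38 array or HH34 replicate 1 (adjusted p = 0.0649 to 0.168). MMP9, a collagenase of osteoclasts and granulocytes, was called in the osteoclast list (1 of 8, against 4.27% of all genes). It read 191 and 162 at HH38 and 24 and 3.23 at HH34. Its call ended without either HH38 array or HH34 replicate 2 (log2 changes 2.88 to 4.44).

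Of 19 cartilage genes 2 were called higher, LECT2 and COMP, against 2.95% of all genes. COMP read 719 and 767 at HH38 and 255 and 208 at HH34, with 1 of its 3 probe sets called. COL2A1, the main cartilage collagen, read 5473 and 6129 at HH38 and 5549 and 5923 at HH34, and ACAN, aggrecan, had a change of -0.12. COL10A1, the collagen of hypertrophic cartilage, read 1075 and 978 at HH38 and 43.8 and 87.1 at HH34 and missed the call (adjusted p = 0.0516). In the tendon and fibrous matrix list, 3 of 24 were called higher and 1 lower, against 2.95% and 1.33% of all genes. FMOD, fibromodulin, rose 5.36-fold, MFAP5, of microfibrils, 3.07-fold and COL6A2 2.41-fold, while SCX, scleraxis, the factor of tendon progenitors, read 220.4 and 160.4 at HH38 and 321 and 502 at HH34. Of these 4 calls, FMOD and MFAP5 ended without any 1 of the 4 arrays (adjusted p = 0.0615 to 0.126 and 0.0589 to 0.0899), COL6A2 without either HH38 array or HH34 replicate 2 (0.0527 to 0.0918) and SCX without replicate 2 of either stage (0.227 to 0.291).

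Pigment genes had a median change of 1.68 over 12 measured members. Of these, 3 were called higher and 0 lower, against 2.95% and 1.33% of all genes. TYRP1, an enzyme of black pigment that lies on Z, read 7421 and 8306 at HH38 and 814 and 864 at HH34 (3.23 ± 0.66, adjusted p = 0.00179). SLC24A5, an ion exchanger of pigment cells, read 1709 and 1449 at HH38 and 407 and 423 at HH34, and KIT, a receptor of melanoblasts, 1459.9 and 1447 at HH38 and 666 and 626 at HH34. TYR, tyrosinase, read 1311 and 1334 at HH38 and 346 and 310.0 at HH34 and was not called (adjusted p = 0.104). GPNMB, a glycoprotein of melanosomes that macrophages also make and that was in none of the lists, read 2160.1 and 2111 at HH38 and 72.2 and 63.7 at HH34 (4.98 ± 0.65, adjusted p = 1.47e-05).

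Of 17 measured genes of digestive secretion, 3 were called higher and 1 lower, against 2.95% and 1.33% of all genes. CTRC, which is among the 3, passed the signal filter only through the HH38 arrays. The 2 HH38 arrays stood apart for AMY2A and CTRC but not for SPINK5 or SST1. AMY2A, pancreatic amylase, read 8375 and 2526 at HH38 and 770.5 and 705 at HH34 (2.64 ± 0.38, adjusted p = 4.83e-05). CTRC, a pancreatic protease, read 650.3 and 112 at HH38 and 5.5 and 13.7 at HH34, at least 8.2-fold higher, and its call ended without HH38 replicate 1 or either HH34 array (adjusted p = 0.0781 to 0.309). SPINK5, a protease inhibitor best known from skin in mammals, rose 3.03-fold. SST1, somatostatin of brain and gut, read 2115 and 2288 at HH38 and 5832 and 6168 at HH34 (-1.45 ± 0.17, adjusted p = 3.13e-06), the 1 member of 17 called lower. A dimmer probe set of SST1 read 175 and 196 at HH38 and 696 and 685 at HH34, with a call that ended without any 1 of the 4 arrays (adjusted p = 0.112 to 0.155). GKN2, a gastrokine of the stomach lining, read 2953 and 1848 at HH38 and 10748 and 8848 at HH34, with a call that ended without any 1 of the 4 arrays (adjusted p = 0.0851 to 0.255). INS, insulin, and GCG, glucagon, were not called.

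The other organ lists held 1 to 4 calls each, against 4.27% of all genes called: kidney had 3 higher and 1 lower of 21, intestine 1 higher and 1 lower of 17, lung 1 higher of 7 and hormones 1 higher of 21, THRSP. THRSP passed the signal filter only through the HH38 arrays. SLC34A1, the phosphate transporter of the kidney tubule, fell to 87.2 and 75.5 at HH38, against 729 and 1098 at HH34 (-3.46 ± 0.42, adjusted p = 4.90e-06), on 1 of its 5 probe sets. This probe set had its highest stage mean at HH6. UMOD, uromodulin, read 73 and 46 at HH38 and 33 and 12.2 at HH34, and AQP3, a water channel of kidney and skin that lies on Z, 157 and 164 at HH38 and 14.2 and 17.8 at HH34. Both were below background on both HH34 arrays. UMOD was at least 1.76-fold higher, a bound under the 2-fold limit, and AQP3 at least 4.88-fold. At HH32 UMOD had read 65.2 and 54.3, so its HH38 signals were not above those of HH32. The UMOD call ended without either HH38 array or HH34 replicate 2 (adjusted p = 0.0621 to 0.467) and the AQP3 call without any 1 of the 4 arrays (0.0966 to 0.141). FABP1, a fatty acid carrier of gut and liver, rose 7.18-fold, a call that ended without replicate 2 of either stage (0.0672 to 0.0693). LCT, named for lactase, read 44.6 and 44.6 at HH38 and 112 and 72.6 at HH34, and AQP5, a water channel of glands and lung, 134 and 113 at HH38 and 66.1 and 37.1 at HH34. LCT lost its call without either HH38 array or HH34 replicate 1 (0.106 to 0.292), and AQP5 without HH38 replicate 1 or HH34 replicate 2 (0.0603 to 0.133). SFTPA1, surfactant protein A, read 178 and 144 at HH38 and 48.2 and 53 at HH34 and was not called. UMOD and AQP5 had their highest stage mean at HH6, FABP1 at HH9 and LCT at HH1.

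Genes of neural progenitors fell in part. HES5 and HES6 are transcription factors of the Notch pathway and of neurogenesis, and PAX6 and SOX2 mark dividing cells of the neural tube and retina. Of 18 measured, 9 were called lower and 0 higher, against 1.33% and 2.95% of all genes. The median change was -1.14. HES6 read 44.2 and 89.6 at HH38, against 571 and 484 at HH34 (-3.06 ± 0.25, adjusted p = 1.75e-08). HES5 read 289.9 and 249 at HH38 and 1426 and 1291 at HH34 (-2.34 ± 0.24, adjusted p = 5.74e-07). PAX6 read 1195 and 1062 at HH38 and 4038 and 4899 at HH34 (-1.98 ± 0.36). HES4, the other measured member of the family, had a change of 0.31 and was not called.

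NR2E1, a nuclear receptor of forebrain and retinal progenitors, read 127 and 119.9 at HH38 and 529 and 534 at HH34 (-2.11 ± 0.48). NEUROG2, a proneural factor, fell at least 3.16-fold. MSI1, an RNA-binding protein of progenitors, read 1022 and 568 at HH38 and 2211 and 2091 at HH34, with 2 of its 5 probe sets called. FABP7, the fatty acid carrier of radial glia, read 4116 and 4429.8 at HH38 and 10117 and 10974 at HH34. DLL1, a Notch ligand, had a change of -1.25, SOX2 of -1.28 and ZIC1 of -1.01, and the calls of SOX2 and ZIC1 ended without any 1 of the 4 arrays (adjusted p = 0.0625 to 0.196 and 0.0575 to 0.11). LOC419390, whose span in the gene table contains HES5 and which has no role given here, read 993 and 902 at HH38 and 3551 and 3997 at HH34. JMJD7, a hydroxylase gene, was named through 1 of its 3 probe sets, which read 113 and 144 at HH38 and 431 and 482 at HH34, while its brightest read 629 and 628 at HH38 and 723 and 891 at HH34 and was not called.

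All 15 measured genes of neuron differentiation had a negative change, with a median of -0.71. Of these, 2 were called lower, against 1.33% of all genes. TUBB3, the neuronal beta-tubulin, read 482 and 453 at HH38 and 1139 and 1007 at HH34 (-1.20 ± 0.16), and TAGLN3, a neuronal transgelin, 656 and 784 at HH38 and 1616 and 1611 at HH34 (-1.17 ± 0.22). Of 23 synapse genes 0 were called, against 4.27% of all genes, and 11 had a positive and 12 a negative change. KCNC1, a potassium channel, read 210.1 and 168 at HH38 and 352 and 541 at HH34, and GRIA4, a glutamate receptor, 63.4 and 85.6 at HH38 and 145 and 143 at HH34.

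In the list of myelin and glia, FA2H and UGT8, enzymes of myelin lipids that other epithelia also use, rose 3.67-fold and 2.22-fold. Without HH38 replicate 2 the change of UGT8 was under 2-fold (log2 change 0.94). MOBP, of myelin, was at or below background on both HH38 arrays and on HH34 replicate 1, and its lower call ended without either HH38 array or HH34 replicate 2 (adjusted p = 0.104 to 0.301). MBP, myelin basic protein, read 3054 and 4377 at HH38 and 369.9 and 296 at HH34, with a change of 3.47 ± 1.15 that just missed the call (adjusted p = 0.05 after rounding).

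Some genes of the lens fell too. Of 18 lens genes 6 were called lower and 0 higher, against 1.33% and 2.95% of all genes. The median change was -1.10. ASL1, which encodes delta-crystallin, the main protein of the bird lens, read 2344 and 3498 at HH38 and 11567 and 14818 at HH34 (-2.19 ± 0.52, adjusted p = 0.00597), with a call that ended without HH38 replicate 1 or HH34 replicate 2 (0.062 to 0.0758). BFSP2, phakinin of the beaded filament, read 81.3 and 65.3 at HH38 and 206 and 324 at HH34 (-1.83 ± 0.27), with its highest stage mean at HH4. BFSP1, its partner filensin, read 136 and 91.5 at HH38 and 445 and 709.5 at HH34, a call that ended without any 1 of the 4 arrays (adjusted p = 0.095 to 0.245). CRYBA4, a beta-crystallin, fell to 488 and 372 at HH38, against 1147 and 1118 at HH34. MIP, the lens water channel, had a change of -1.08, under 2-fold without HH34 replicate 1 (-0.97). HSF4, a heat shock factor of the lens, was below background on both HH38 arrays and fell at least 1.4-fold, a bound under the 2-fold limit. Its call ended without HH38 replicate 1 or either HH34 array (log2 changes -3.61 to -2.92). CRYAA read 229 and 368 at HH38 and 1135 and 1484 at HH34 and was not called (adjusted p = 0.108).

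VSX1, a factor of retinal bipolar cells, read 680.5 and 474 at HH38 and 1992 and 2377 at HH34 (-1.94 ± 0.36, adjusted p = 0.00076). ATOH7, the factor that commits retinal ganglion cells, read 5.8 and 61.8 at HH38 and 350.2 and 313 at HH34, at least 6.91-fold lower, and its call ended without HH38 replicate 1 or either HH34 array (adjusted p = 0.088 to 0.316). Its stage mean was 1187 at HH32 and 331 at HH34. Of 13 retina genes VSX1 was the 1 called, against 4.27% of all genes. RLBP1, a retinal carrier, read 176 and 149 at HH38 and 319 and 315 at HH34, with an adjusted p of 0.0333 and a change just under 2-fold.

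The embryonic globins fell and the definitive alpha globins did not pass the test. HBZ, the embryonic alpha-type globin, read 179 and 167 at HH38 and 2343 and 2036 at HH34 (-3.66 ± 0.60, adjusted p = 0.000216). HBE, an embryonic beta-type globin, read 1215 and 1088 at HH38 and 9863 and 9467 at HH34 (-3.07 ± 0.24, adjusted p = 7.78e-09). HBBR, the rho globin, read 834 and 834 at HH38 and 6254 and 6314 at HH34 (-2.91 ± 0.93, adjusted p = 0.0396). Its call ended without any 1 of the 4 arrays, although the log2 change stayed at -2.92 to -2.91. HBA1 read 38745 and 44780.1 at HH38 and 40503 and 32995 at HH34, and HBAD 34950.3 and 40160.5 at HH38 and 35974 and 31234 at HH34, with overlapping arrays for both. The 3 embryonic globins were the called members among 20 measured genes of the erythroid list, against 4.27% of all genes. The list had a median change of 0.13. Among red cell genes other than globins, SLC4A1, the anion exchanger, had a change of 0.11 and HEMGN, a nuclear factor placed on Z, of 0.70.

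The stage means of the embryonic globins were lower at HH34 than at HH24. HBZ had stage means of 44633 at HH24, 34819 at HH27, 6653 at HH32, 2184 at HH34 and 173 at HH38. HES5 had means of 3750.3, 3321, 1802, 1357 and 268 at the same stages. ASL1 and PAX6 took another course. ASL1 lay between 12204 and 13784 from HH24 to HH34 and at 2864 at HH38, and PAX6 had its highest mean of the series, 4448, at HH34. KRT5 had means of 30.4 at HH27, 155 at HH32, 604 at HH34 and 8382 at HH38, while KRT6A had 4.63, 5.6, 5.6 and 2017.

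**Figure D5:**
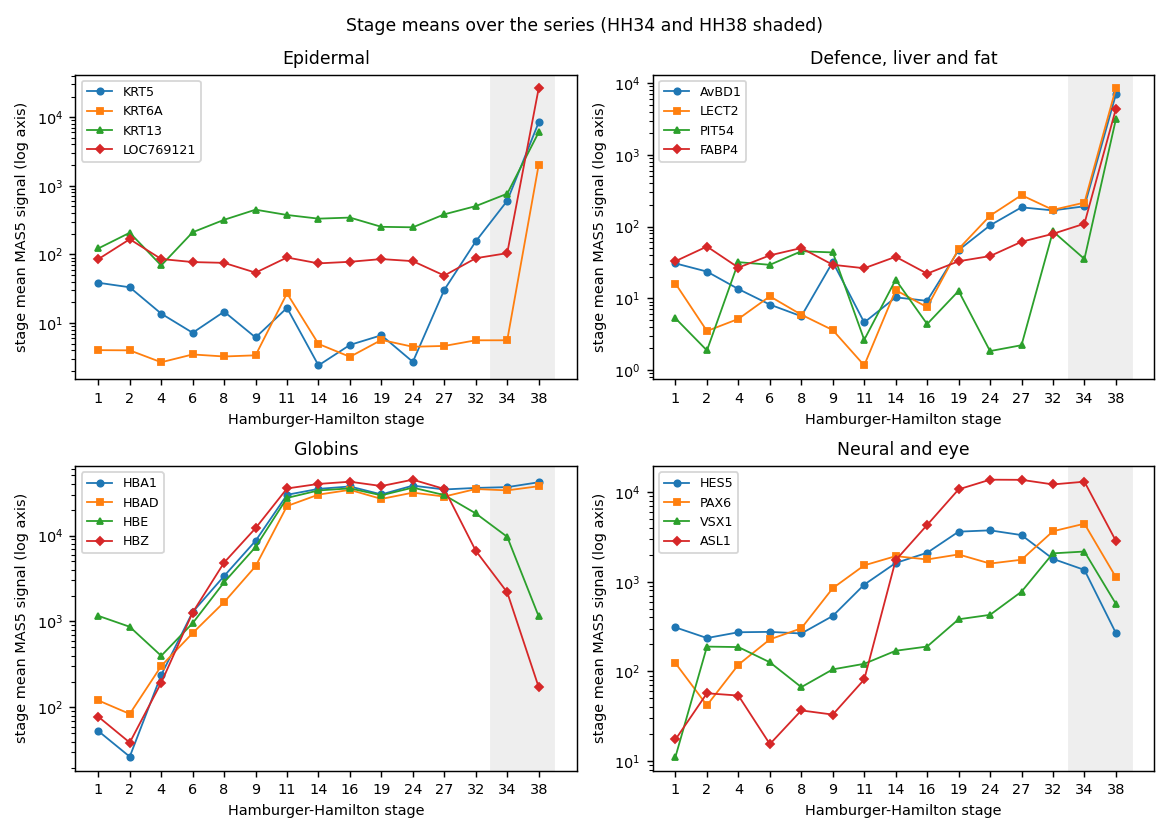
Stage means of MAS5 signal (log axis) of genes named in the text over the 15 stages from HH1 to HH38, with HH34 and HH38 shaded. HBZ and HBE descend from HH24 onward while HBA1 and HBAD end at their highest mean, and KRT6A, LOC769121 and PIT54 have their highest mean at HH38.

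Patterning factors of the limb and face fell in part. Of 32 measured, 4 were called lower and 1 higher, against 1.33% and 2.95% of all genes. The median change was -0.53. ALX1, a factor of facial mesenchyme, read 122 and 138 at HH38 and 367 and 443 at HH34 (-1.63 ± 0.32), HOXD13, of the digits, 144 and 81.1 at HH38 and 319.7 and 293 at HH34, and PITX1, of the hind limb, 1182 and 987 at HH38 and 2492 and 2727 at HH34. FGF8, a growth factor of limb and face, was below background at HH38 and fell at least 1.76-fold. MSX2, a homeobox factor, moved the other way, at 3861 and 3749 at HH38 and 722 and 798 at HH34 (2.33 ± 0.12, adjusted p = 8.45e-12), and it is also expressed in feather germs and bone.

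Of 20 embryonic and heterochronic regulators 3 were called lower and 0 higher, against 1.33% and 2.95% of all genes. DNMT3B, a DNA methyltransferase, read 460.0 and 429 at HH38 and 1239 and 1091 at HH34 (-1.39 ± 0.14, adjusted p = 2.86e-07). HMGA2, a chromatin protein of growing tissue, read 165 and 96.2 at HH38 and 331 and 308 at HH34, under the 2-fold limit without HH38 replicate 2 (log2 change -0.95). LIN28B, which blocks let-7, fell at least 1.3-fold, a call that ended without HH38 replicate 2 or HH34 replicate 1 (adjusted p = 0.0701 to 0.133).

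Genes of cell division held no call. None of 43 cell cycle and 43 DNA replication genes was called, against 4.27% of all genes. But at an adjusted p below 0.05 with no minimum fold 13 and 14 were lower and 1 and 0 higher, against 10.7% lower and 6.96% higher of all genes. PRIM1, a primase subunit, read 461 and 383 at HH38 and 648 and 681 at HH34 (adjusted p = 0.000325), and KIF4B, a chromokinesin, 2841 and 3148 at HH38 and 4381 and 4055 at HH34. Of 34 oxidative phosphorylation genes, 17 glycolysis genes and 45 ribosomal protein genes 0 were called, against 4.27% of all genes. With no minimum fold, 6 oxidative phosphorylation genes were lower and 1 higher. By that limit 1 glycolysis gene was lower and 3 higher, and 0 ribosomal protein genes differed. NDUFS1, of complex I, read 2588 and 2278 at HH38 and 4717 and 4179.7 at HH34, and PFKM, the muscle phosphofructokinase, 385 and 378 at HH38 and 202.9 and 219 at HH34. Of 15 germ line genes 0 were called, against the same 4.27%. DDX4, the germ cell helicase on Z, read 134 and 133 at HH38 and 49.5 and 52.6 at HH34.

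Immediate early and heat shock genes respond to handling as well as to growth signals. Of 18 measured, 3 were called higher and 0 lower, against 2.95% and 1.33% of all genes. EGR1, an immediate early factor, read 8304 and 7984 at HH38 and 2374 and 2332 at HH34 (1.79 ± 0.32, adjusted p = 0.000451), HSPA2, a chaperone, 10923 and 10619 at HH38 and 3658 and 3727 at HH34, and BTG2, an antiproliferative gene, 3562 and 3465 at HH38 and 1558 and 1670.5 at HH34. FOS read 36.4 and 28.6 at HH38 and 21.2 and 22.3 at HH34 and was not called.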

How the data were processed

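Total RNA of pooled whole embryos was labelled by 3' in vitro transcription and read on Affymetrix Chicken Genome Arrays, which carry 1 colour, per the labels' protocols. The deposited intensity values are MAS5 signals, per the submitters' processing notes, and each array's mean after trimming 2% at either end was 500. No version or setting of MAS5 is given in the sources used here. Of 38535 probe sets, 37693 were for chicken, 689 for other organisms, 57 for reporters and 96 were controls. GEO's platform annotation gives 1 symbol for 27166 chicken probe sets, several for 177 and none for 10350, and 26851 of the first matched a gene of the GRCg7b table, which supplied chromosomes and neighbours.

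The log2 of the deposited signals was fitted with limma 3.58.1 in R 4.3.3 (lmFit, and eBayes with a variance trend) as 15 stage means over 30 arrays, which left 15 residual degrees of freedom. Chicken probe sets were kept if they reached the 40th percentile on at least 2 arrays, which left 29600, and p-values were adjusted by Benjamini-Hochberg over these. A gene was read from its brightest kept probe set over both stages. Of the 133 named genes that were called, 50 had several probe sets, of which 20 had every one called the same way and 0 had calls both ways. The text gives the share of called probe sets for some genes only. Among genes named without it, LOC772080 had 2 of 4 called, and BLB1 and ELOVL1 1 of 3 each. TNNT3, CD36, RBP7, FA2H, SLC24A5 and CYP1A2 had 1 of 2 each. The same held for LOC107055128, KRT13, TP63, GRHL3, CGN, COL6A2, ARG2, DLL1 and ZIC1. It also held for DNMT3B, PLIN1, LYZ, IL7R, SLC34A2, ABCA12, RAB27A and DMRT1. AQP5 had 1 of 3 called and LCT 1 of 4. KRT5, SST1, AMY2A, ELOVL6, KLF5 and LOC426615 had 2 of 3 each.

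The gene lists (43, with 1126 symbols, of which 828 genes were measured and 38 found by a synonym) and the members were chosen with earlier results of these data known. Genes were named by rule: the 20 largest rises and 20 largest falls by change with signals under background set to it, among called probe sets with 1 symbol, arrays that did not overlap and a brighter stage above the median signal; up to 6 called members of each list, or the 2 with the largest change where fewer than 2 were called; the W list; and the families of the leaders. Other list members that the text names, called or not, were chosen after their values were seen.

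The fit was tested on simulated signals for this comparison over 29600 probe sets: at an adjusted p below 0.05 it recovered 76.1% of 67 probe sets changed by 1 on the log2 scale and 100% at changes of 2 and 3, with 15 false calls. The changed probe sets were drawn only from those with a mean above the median. The noise was normal, and the 2-fold limit was not applied. These rates therefore do not cover dim probe sets or the rule by which probe sets were called. Same-numbered arrays of HH38 and HH34 did not deviate together (r = -0.03, and 0 of 105 stage pairs above 0.1), so numbers were not used as pairs. Alternatives in scaling, filter, background, fit, arrays and call limit were run.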

Additional observations from a re-analysis of the deposited data

How the results depend on the processing

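No named gene that was called changed sign under the alternatives for which changes were compared gene by gene. These left out HH38 against HH32. There, for example, IL7R and UMOD had lower means at HH38 than at HH32 (64.3 against 71.7 and 57.9 against 59.5). The balance of higher and lower calls turned without HH38 replicate 2 and with no minimum fold. Leaving out each of the 4 arrays in turn gave 852 to 962 called probe sets, 459 to 585 higher and 288 to 499 lower, against 1126, 687 and 439 with all arrays, and the share of higher among called was 48.1% to 66.2%, against 61%. Of the 133 named genes called, 90 kept the call in all 4 of these fits and 43 lost it in at least 1. A lost call did not always go with a changed size: for CCLI5 the log2 change stayed at 3.37 to 3.49 when arrays were left out. With no minimum fold 3826 were called, 1538 higher and 2288 lower, so lower calls were then the more frequent, and 215 list members were called. At an adjusted p below 0.01 and 4-fold, 260 were called, 180 higher and 80 lower, with 37 list members. Setting signals under background to it gave 1070 higher calls, and the cause was not tested. Scaling to the 75th percentile gave 672 higher and 470 lower, and quantile normalization 721 and 589. No filter, a filter on background, an offset of 16, no variance trend, array weights and a fit on the 4 arrays alone gave 1090 to 1434 called probe sets. Among named genes that were not called, the sign of the change turned 12 times over the alternatives compared gene by gene. With a replicate block the counts were 695 higher and 451 lower, and against HH32 in place of HH34, chosen after seeing the data, 793 and 607. The alternative without Z and W was also chosen after seeing the data. Dim probe sets limit the result: 11 higher and 7 lower calls lay at or below background on all 4 arrays.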

Other observations

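The genes that follow were chosen after their values had been seen and were in none of the lists, apart from FA2H. They make up no list, and no count over all genes of their kind was made. CERS3, a ceramide synthase of the epidermis, read 1011 and 909.9 at HH38 and 88.9 and 76.7 at HH34 (3.54 ± 0.41, adjusted p = 3.13e-06). ABCA12, which loads lipid into lamellar granules of mammalian skin, read 824 and 790.1 at HH38 and 57.9 and 70.7 at HH34 (3.66 ± 0.85). SPTLC3, a subunit of serine palmitoyltransferase, rose 7.75-fold, and SPTSSBL, named for a small subunit of that enzyme, 8.64-fold. ELOVL1 rose 2.9-fold and ELOVL7, placed on Z, 5.43-fold, both elongases of fatty acids. UGT8L was at least 7.87-fold higher, and FA2H of the glia list, which also makes hydroxylated ceramides, 3.67-fold. FADS6, named for fatty acid desaturases, lost its call without either HH38 array or HH34 replicate 1 (adjusted p = 0.0884 to 0.331).

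PERPA and PERPB, desmosomal membrane proteins, read 1785 and 1812 and then 2085 and 2359 at HH38, against 229 and 275 and then 290.2 and 435 at HH34. CSTA, a cystatin of the cornified envelope in mammals, rose 6.31-fold, and the transcription factors GATA3, KLF5 and TFAP2C rose 4.71-fold, 4.07-fold and 3.53-fold. NFKBIZ, a nuclear regulator of inflammatory genes, rose 11.9-fold. SERPINB5 and EHF lost their calls in 3 of the 4 fits without 1 array, and in all 3 the adjusted p was 0.137 to 0.389 for SERPINB5 and 0.113 to 0.233 for EHF.

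Of melanosome genes outside the pigment list, RAB27A, a transport GTPase, read 1096 and 1124 at HH38 and 434 and 448 at HH34. GPR143 rose 4.51-fold, a call that ended without any 1 of the 4 arrays (adjusted p = 0.118 to 0.124), and TSPAN10 was at least 4.64-fold higher, a call that ended without HH34 replicate 2 (0.1). NPY, a neuropeptide, read 5744 and 6131 at HH38 and 733 and 857 at HH34 (2.90 ± 0.17, adjusted p = 8.75e-11). The lists of synapse and neuron genes held 0 higher calls, against 2.95% of all genes. The metallothioneins MT3 and MT4 rose 3.91-fold and 2.68-fold.

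Among falls, OTX2, a factor of forebrain and eye, read 2283 and 2596 at HH38 and 6943 and 7828 at HH34 (-1.60 ± 0.15, adjusted p = 1.17e-07). SOX4 fell 2.38-fold and LAMA1, a laminin chain, 2.63-fold, with 2 of the 5 probe sets of LAMA1 called. SIX3 fell 2.42-fold, with a call that ended without any 1 of the 4 arrays (adjusted p = 0.0572 to 0.138), and SOX11 2.2-fold, with a call that ended without replicate 1 of either stage (0.0549 to 0.118). AKR1D1, a reductase of steroid and bile acid synthesis, read 2103 and 2254 at HH38 and 7901 and 7048 at HH34 (-1.78 ± 0.10, adjusted p = 3.00e-11), and CYP1A2, a cytochrome of the liver, fell 3.08-fold. In the list of liver enzymes MAT1A was called higher and ARG2 lower, and the median change was 0.004. DMRT1, the testis factor on Z, read 95.2 and 93.5 at HH38 and 171 and 274 at HH34, against a positive median for genes on Z, and its fall was under 2-fold without HH34 replicate 2 (log2 change -0.86).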
